A study of Mus musculus with 22 samples.

Results

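The genes described here are 8 that mark border-associated macrophages, the macrophages of the meninges, the perivascular spaces and the choroid plexus: Pf4, Mrc1, Cd163, Lyve1, F13a1, Cbr2, Folr2 and Stab1. Each was read from the probe set that mapped to its symbol alone, and each of the 8 symbols had exactly 1 such probe set, so no choice between probe sets arose. They are 8 of 19937 genes with a single-gene probe set and 8 of the 11830 genes that passed a filter on low values (above the array's median on at least 2 arrays), and none was lost to that filter. The genes were chosen by name as markers and not by a rule on measured values, but with earlier results of these data known.

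Expression was measured on 22 microarrays of total RNA from cells sorted out of whole mouse brains, 11 arrays from wild-type (WT) mice and 11 from Trem2 knockout (KO) mice, which lack a lipid-sensing receptor of myeloid cells. Cells were taken as microglia where they stained for CD11b, CD45 and F4/80, proteins that border-associated macrophages also carry, so the gate as described does not separate these cells. WT control and KO control, each with 2 arrays, received neither additive. The WT cuprizone and KO cuprizone groups (3 arrays each) were fed 0.2% cuprizone, which binds copper and makes the brain lose its oligodendrocytes and myelin, for 4 weeks. The WT Covi-Ox group (3 arrays) was fed 0.1% Covi-ox T70, a mixture of tocopherols, with added alpha tocopherol, and the WT both group (3 arrays) received both additives. The labels give 4 weeks for these diets, and the design text adds 2 weeks on the Covi-Ox feed before the combined diet and 2 weeks on chow before cuprizone alone. For the other 6 KO arrays the labels contradict each other. Set A (3 arrays) is titled as both additives but described as Covi-Ox alone, and set B (3 arrays) is titled as Covi-Ox alone but described as both. Neither reading was chosen, so the sets are named A and B throughout. The knockout is labelled only as Trem2 knockout, so no cell type limits it. The labels do not say whether arrays of a group came from separate mice, so p-values measure the spread between these arrays, which may be partly technical.

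Border-associated macrophages and microglia both descend largely from yolk sac progenitors, but they settle in different places and keep different gene programmes. Border-associated macrophages sit along vessels and in the meninges, where they take up proteins, lipids and debris from blood, lymph and cerebrospinal fluid, and their best known markers are endocytic receptors. Among the 8 genes, Mrc1 encodes the mannose receptor, Cd163 the receptor for haemoglobin bound to haptoglobin, Stab1 the scavenger receptor stabilin-1, Lyve1 a hyaluronan receptor shared with lymphatic endothelium, and Folr2 a folate receptor of macrophages. Pf4 encodes a chemokine stored in platelets and also made by these macrophages. F13a1 encodes the catalytic chain of coagulation factor XIII, a transglutaminase, and Cbr2 encodes a carbonyl reductase.

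The 4 genes that fell with cuprizone in WT mice both on the Covi-Ox diet and on average over diets were Pf4, Mrc1, Cd163 and Stab1 (values below). Each is shown with the 250 bases before an annotated transcription start, from RefSeq in assembly GRCm38.p6, to set the promoters side by side. For Cd163 and Stab1 the window overlaps the first bases of the annotated gene, which begins at 124304636 and, on the minus strand, at 31168651. Capitals mark matches to a core motif of the macrophage factor PU.1 (GAGGAA, or TTCCTC on the other strand) or to a MAF half-site (TGCTGA, or TCAGCA on the other strand). Each sequence runs 5′ to 3′ in the direction of the gene.
Pf4 (chr5:90772185-90772434, plus strand): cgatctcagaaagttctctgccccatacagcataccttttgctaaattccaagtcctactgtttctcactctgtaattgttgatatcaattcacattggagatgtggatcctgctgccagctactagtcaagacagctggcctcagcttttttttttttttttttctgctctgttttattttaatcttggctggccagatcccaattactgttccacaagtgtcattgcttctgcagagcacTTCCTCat
Mrc1 (chr2:14229164-14229413, plus strand): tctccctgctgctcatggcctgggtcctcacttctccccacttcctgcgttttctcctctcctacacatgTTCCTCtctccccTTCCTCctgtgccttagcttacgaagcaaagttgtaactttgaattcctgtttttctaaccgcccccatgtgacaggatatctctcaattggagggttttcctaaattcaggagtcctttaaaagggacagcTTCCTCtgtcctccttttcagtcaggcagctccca
Cd163 (chr6:124304401-124304650, plus strand): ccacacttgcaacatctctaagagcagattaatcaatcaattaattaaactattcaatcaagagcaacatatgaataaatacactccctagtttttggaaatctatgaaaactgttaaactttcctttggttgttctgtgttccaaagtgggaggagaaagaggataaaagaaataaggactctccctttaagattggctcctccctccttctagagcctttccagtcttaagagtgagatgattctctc
Stab1 (chr14:31168642-31168891, minus strand): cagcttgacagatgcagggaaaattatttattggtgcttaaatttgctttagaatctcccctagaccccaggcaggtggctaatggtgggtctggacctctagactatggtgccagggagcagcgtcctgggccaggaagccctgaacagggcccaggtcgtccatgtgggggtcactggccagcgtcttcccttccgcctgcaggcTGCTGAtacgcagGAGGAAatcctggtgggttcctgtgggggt
The PU.1 core stood in the windows of Pf4, Mrc1 and Stab1 and not in that of Cd163. RefSeq promoters matched 7 of the 8 genes, with 9 windows in all, and Lyve1 had no entry. Over these 9 windows 5 held the PU.1 core, against 23.3% of all 32851 RefSeq mouse windows of the same length, and 3 held the MAF half-site, against 16.1%. The MAF half-site lay in both windows of Folr2 and in that of Stab1, and no match overlapped another. These letter matches describe the windows and are not binding sites.

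The deposited values are RMA intensities, taken here as log2, and array medians lay between 5.17 and 5.27 on that scale. Trem2 checked the genotype labels, with geometric means of the intensity of 1315 (WT control) and 88.6 (KO control) and a KO minus WT difference of -3.84 ± 0.06 (SE, log2, adjusted p = 5.57e-20). All 13 measured microglia markers, such as P2ry12, Tmem119 and Sall1, lay above the array median on every array. All 176 values of the 8 border macrophage genes did so too. They came within 1 log2 unit of the median on 18 arrays for Folr2, 9 for Cd163 and 1 for F13a1, and on none for the other 5 genes. A set of 3 arrays stood apart in 24 immediate-early genes, which respond to stress and handling, with a mean log2 level of 8.62 for WT cuprizone 3 and of 8.89 and 8.92 for KO cuprizone 2 and 3, against 9.76 to 9.97 on the others.

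In WT mice, each of the 8 border macrophage genes was lower on average with cuprizone in the diet than without it. Over both base diets (WT cuprizone against WT control and WT both against WT Covi-Ox, averaged), Pf4, Mrc1, Cd163, F13a1 and Stab1 fell, by 1.72-fold, 1.75-fold, 1.68-fold, 1.61-fold and 1.20-fold. Lyve1, Cbr2 and Folr2 did not pass the test, at -0.50 ± 0.22, -0.48 ± 0.24 and -0.25 ± 0.14 (log2 difference ± SE, adjusted p = 0.147, 0.225 and 0.267). The 5 calls stand against a background of 12.9% of the 11830 genes called in either direction and 5.93% called lower in this comparison (limma, Benjamini-Hochberg over all genes, adjusted p under 0.05). The median log2 difference of the 8 genes was -0.60, against -0.03 over all genes tested. In bulk RNA, a smaller share of border-associated macrophages among the sorted cells and less of these RNAs per cell cannot be told apart.

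**Figure D1:**
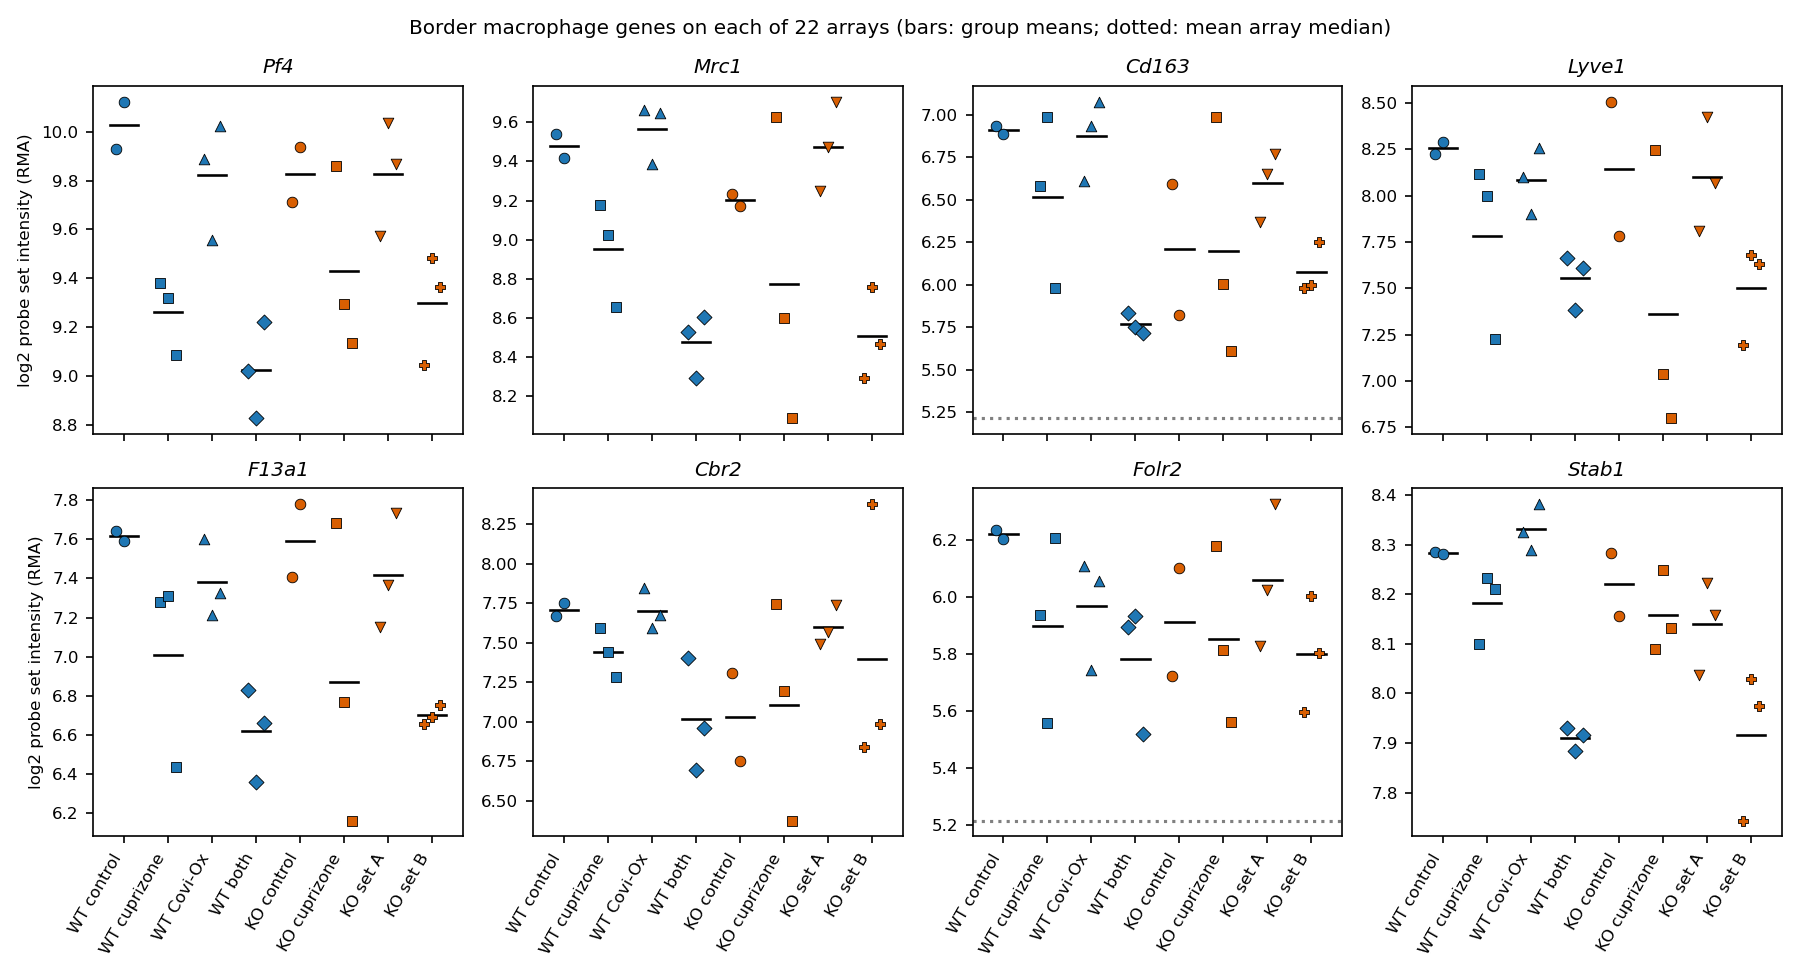
Log2 RMA intensity of each border macrophage gene (vertical axis, a separate range in each panel) on each of the 22 arrays, grouped by genotype and diet (horizontal axis), with WT arrays in blue, KO arrays in orange and black bars at group means. The 3 WT both arrays of Mrc1 lie between 8.29 and 8.60, below the WT Covi-Ox arrays at 9.39 to 9.67, while the KO cuprizone arrays spread from 8.09 to 9.63.

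Mrc1, the mannose receptor, had lower group means with cuprizone on both base diets. Its log2 level was 9.54 and 9.42 on the WT control arrays and 9.18, 9.03 and 8.66 on the WT cuprizone arrays. It was 9.67, 9.39 and 9.65 on the WT Covi-Ox arrays and 8.53, 8.29 and 8.60 on the WT both arrays. Every WT array on cuprizone was below every WT array without it. The fall was 1.09 ± 0.25 on the log2 scale between WT Covi-Ox and WT both (2.13-fold, adjusted p = 0.0091). Between WT control and WT cuprizone the log2 difference was -0.53 ± 0.28 (adjusted p = 0.366), which did not pass. The average of both differences was -0.81 ± 0.19 (adjusted p = 0.00729).

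Cd163, the haemoglobin scavenger receptor, separated in the same diet. The WT both arrays read 5.83, 5.75 and 5.72 in log2 level, close to the array medians, and the WT Covi-Ox arrays 6.61, 6.93 and 7.08. All 3 WT both arrays lay below all others of the WT mice. The WT cuprizone arrays, at 6.58, 6.99 and 5.98, lay on both sides of the WT control arrays at 6.94 and 6.89, and the lowest of them was an array low in immediate-early genes. Cd163 fell by 1.10 ± 0.27 on the log2 scale in WT both against WT Covi-Ox (2.15-fold, adjusted p = 0.0158) and by 0.75 ± 0.21 on average over both diets (adjusted p = 0.0205). WT cuprizone minus WT control was -0.40 for Cd163.

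Stab1, which encodes stabilin-1, had the smallest difference of the 5 called genes and the smallest residual SD of the 8. Its log2 level was 8.29 and 8.28 in WT control, 8.10, 8.23 and 8.21 in WT cuprizone, 8.33, 8.29 and 8.38 in WT Covi-Ox and 7.93, 7.88 and 7.92 in WT both. The WT both arrays stood alone below 8.0 among the WT arrays. Stab1 fell by 0.42 ± 0.09 on the log2 scale in WT both against WT Covi-Ox (1.34-fold, adjusted p = 0.0062). The average over both diets was -0.26 ± 0.07 (adjusted p = 0.0152), and WT cuprizone minus WT control was -0.10, which did not pass. The residual SD of Stab1 was 0.085, at percentile 2.43 of all genes tested.

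Pf4, the chemokine, was lower with cuprizone to nearly the same extent on both base diets. Log2 levels were 9.93 and 10.12 in WT control and 9.38, 9.32 and 9.09 in WT cuprizone. In WT Covi-Ox they were 9.89, 9.56 and 10.02, and in WT both 9.02, 8.83 and 9.22. No WT array on cuprizone reached the lowest array without it. Pf4 fell by 0.76 ± 0.20 on the log2 scale in WT cuprizone against WT control (1.70-fold, adjusted p = 0.0466) and by 0.80 ± 0.18 in WT both against WT Covi-Ox (1.74-fold, adjusted p = 0.00749). The average of both was -0.78 ± 0.13 (adjusted p = 0.000569).

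F13a1, the factor XIII chain, read 7.64 and 7.59 in log2 level in WT control, 7.28, 7.31 and 6.43 in WT cuprizone, 7.60, 7.21 and 7.33 in WT Covi-Ox and 6.83, 6.36 and 6.66 in WT both. Within each base diet the arrays on cuprizone were all lower, but across diets the groups overlapped. F13a1 passed only as the average, at -0.69 ± 0.21 on the log2 scale (adjusted p = 0.0347). WT cuprizone minus WT control was -0.61 and WT both minus WT Covi-Ox was -0.76 (adjusted p = 0.107).

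The other 3 genes passed in none of these comparisons. Lyve1, the hyaluronan receptor, ran from 8.22 to 8.29 in WT control, 7.23 to 8.12 in WT cuprizone, 7.90 to 8.26 in WT Covi-Ox and 7.38 to 7.66 in WT both (log2 level), with the WT cuprizone array at 7.23 low in immediate-early genes as well. Cbr2, the carbonyl reductase, ran from 7.67 to 7.75, 7.28 to 7.59, 7.59 to 7.85 and 6.70 to 7.41 in the same groups. Its arrays on cuprizone were lower than those without it within each base diet, as were those of Lyve1. Folr2, the folate receptor, lay near the array median throughout, from 5.52 to 6.23 over the 11 WT arrays, and its groups overlapped in both diets.

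Taken by base diet, 1 of the 8 genes (Pf4) was called lower in WT cuprizone against WT control, where 2.5% of all genes were called in either direction and 0.702% lower. In WT both against WT Covi-Ox 4 were called lower (Pf4, Mrc1, Cd163 and Stab1), where 7.82% of all genes were called and 3.17% lower. The arrays of the first group lay all below those of the second for 6 genes in the former comparison and 7 in the latter, against 17.6% and 17.5% of all genes. Over all WT arrays, those on cuprizone lay below all others for Pf4, Mrc1 and Stab1, against 3.63% of genes. The median log2 differences of the 8 genes were -0.44 and -0.72, against -0.02 and -0.03 over all genes.

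Whether the cuprizone difference depended on the base diet was tested as an interaction, which passed for none of the 8 genes (limma, 0.0254% of all genes called). At an unadjusted p under 0.05 it held for 1, Stab1, at -0.32 ± 0.14 on the log2 scale (adjusted p = 0.710), and for 6.64% of all genes. Covi-Ox alone was followed by no call among the 8 genes against WT control (0.0338% of genes called, 0 of the 8 and 7.29% of genes at an unadjusted p under 0.05), with log2 differences from -0.25 for Folr2 to 0.09 for Mrc1. Between the cuprizone diets, WT both minus WT cuprizone, no gene of the 8 was called (0.152% of genes). All 8 were lower in WT both, from -0.12 for Folr2 to -0.75 for Cd163 (adjusted p = 0.412), and 2 had an unadjusted p under 0.05, against 8.09% of genes. For Mrc1, Cd163 and Stab1 all WT both arrays lay below all WT cuprizone arrays, against 8.4% of genes.

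These calls depended on single arrays to different degrees. The Pf4 difference between WT cuprizone and WT control, which was near the threshold, lost its call when any of 14 of the 22 arrays was left out. These were WT control 1 and 2, WT cuprizone 2 and 3, WT Covi-Ox 1 and 3, WT both 1, 2 and 3, KO cuprizone 2, set A 2 and 3, and set B 2 and 3. The log2 differences then ran from -0.86 to -0.67, with adjusted p from 0.0503 to 0.315. Without the WT both array 2, the comparison with WT Covi-Ox kept 1 call, Stab1, while Pf4, Mrc1 and Cd163 stood at -0.70, -1.0 and -1.10 with adjusted p = 0.0517, 0.0520 and 0.0544. Cd163 also missed there without WT both 3, WT Covi-Ox 2 or WT Covi-Ox 3 (adjusted p = 0.0543, 0.0586 and 0.0711). For the average over both diets, 2 calls (Pf4 and Mrc1) remained without either WT control array, where the single array left was taken to vary like the other groups. Without WT cuprizone 3, which was low in immediate-early genes, Pf4, Mrc1 and Stab1 remained, and Cd163 and F13a1 stood at -0.62 and -0.54 (adjusted p = 0.0601 and 0.101). F13a1 also missed without WT both 2, WT both 3, WT Covi-Ox 1 or WT Covi-Ox 3 (adjusted p from 0.0549 to 0.0838). Without all 3 arrays low in immediate-early genes, the same 5 genes were called in the average, Pf4 at -0.74, Mrc1 at -0.74, Cd163 at -0.62, F13a1 at -0.54 and Stab1 at -0.27.

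**Figure D2:**
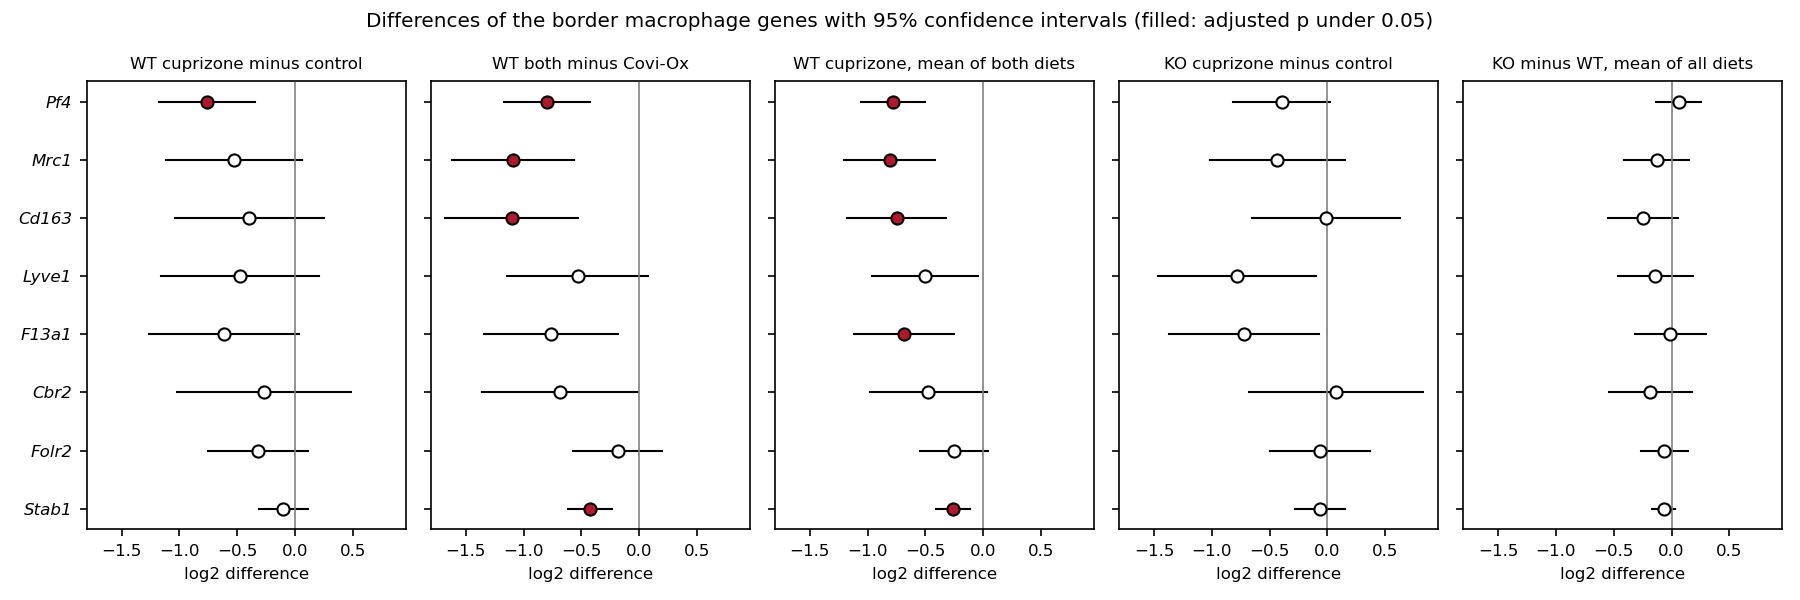
Log2 differences of the 8 border macrophage genes (rows) in 5 comparisons (panels), as points with 95% confidence intervals, filled where the adjusted p was under 0.05. In the average over both WT diets 5 genes are filled, from -0.81 for Mrc1 to -0.26 for Stab1, and none is filled in the 2 panels that involve KO mice.

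In KO mice the cuprizone arrays disagreed with each other. For Mrc1 the KO control arrays read 9.23 and 9.17 in log2 level and the KO cuprizone arrays 9.63, 8.60 and 8.09. For Lyve1 they read 8.51 and 7.78 against 8.25, 7.04 and 6.80, and for F13a1 7.41 and 7.78 against 7.69, 6.77 and 6.16. KO cuprizone 1 thus lay within or above the range of the control arrays, while KO cuprizone 2 and 3, both low in immediate-early genes, were lower. Pf4 followed the same order, at 9.71 and 9.94 in KO control and 9.86, 9.30 and 9.13 in KO cuprizone. Cd163 (6.60 and 5.82, then 6.98, 6.0 and 5.61) and Cbr2 (7.31 and 6.75, then 7.74, 7.19 and 6.38) also varied between the control arrays. Folr2 read 5.72 and 6.10 in KO control and 6.18, 5.81 and 5.56 in KO cuprizone, and Stab1 8.28 and 8.16, then 8.09, 8.25 and 8.13. The groups overlapped for each of the 8 genes.

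No gene of the 8 was called in KO cuprizone against KO control (limma, 0.0423% of all genes called), with log2 differences from -0.78 ± 0.33 for Lyve1 (adjusted p = 0.308) to 0.08 ± 0.36 for Cbr2. Lyve1 and F13a1 (-0.72 ± 0.31, adjusted p = 0.320) had an unadjusted p under 0.05, as did 13.4% of all genes. Without KO cuprizone 1, 3 genes were called: Mrc1 at -0.86, Lyve1 at -1.22 and F13a1 at -1.13 (adjusted p = 0.0349, 0.0264 and 0.0341). That fit leaves only KO cuprizone 2 and 3, both low in immediate-early genes, in the group. The share of all genes it called is not given here. Without the 3 arrays low in immediate-early genes, which leaves KO cuprizone 1 alone in its group, 7 of the 8 differences were above 0 and none was called, with Mrc1 at 0.42 and Cd163 at 0.77. In a fit that carried the immediate-early level of each array as a covariate, none was called either, with Mrc1 at -0.01, Lyve1 at -0.22 and F13a1 at -0.20.

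The difference between genotypes in the response to cuprizone was tested directly, and it passed for none of the 8 genes (limma, 0.228% of all genes called, 0 of the 8 and 10.1% of genes at an unadjusted p under 0.05). The log2 differences of differences ran from -0.31 ± 0.46 for Lyve1 to 0.39 ± 0.43 for Cd163, with adjusted p of at least 0.711. For Pf4, which was called in WT mice, it was 0.37 ± 0.28, with a 95% interval from -0.22 to 0.96. For Mrc1 the interval ran from -0.74 to 0.92. Both intervals include 0 and also a difference as large as the one seen in WT mice.

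Loss of Trem2 itself left the 8 genes without a call. Averaged over the 4 groups of each genotype, a comparison that is the same under either reading of sets A and B, KO minus WT log2 differences ran from -0.25 ± 0.15 for Cd163 (adjusted p = 0.320) to 0.06 ± 0.09 for Pf4 (adjusted p = 0.736). The 95% interval was -0.14 to 0.26 for Pf4, -0.41 to 0.15 for Mrc1 and -0.17 to 0.03 for Stab1. No gene of the 8 had an unadjusted p under 0.05 (limma), while 22.6% of all genes did and 6.37% were called. Between the control groups all 8 genes were lower in KO mice, from -0.03 for F13a1 to -0.70 for Cd163 (adjusted p = 0.473), and none was called (0.0676% of genes). In that comparison 1 of the 8 and 10.5% of genes had an unadjusted p under 0.05, and the KO arrays lay all below the WT arrays for Mrc1, Cd163, Cbr2 and Folr2, against 21.7% of genes. Between the cuprizone groups none was called (3.8% of genes called, 0 of the 8 and 19.1% of genes at an unadjusted p under 0.05), and differences ran from -0.42 for Lyve1 to 0.17 for Pf4.

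Sets A and B of the KO mice stood apart on the arrays for most of the 8 genes, in differences that did not pass the test. For Mrc1 set A read 9.25, 9.48 and 9.71 in log2 level and set B 8.29, 8.76 and 8.47. F13a1 read 7.15, 7.36 and 7.74 in set A and 6.65, 6.69 and 6.76 in set B. Pf4 read 9.57, 10.04 and 9.87, then 9.04, 9.48 and 9.37. For these genes and for Cd163, Lyve1 and Stab1 all set A arrays were above all set B arrays, 6 genes against 9.95% of all genes. Cbr2 overlapped because set B held its highest value of the series, 8.38, beside 6.84 and 6.98.

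Set A minus set B was above 0 for all 8 genes, from 0.20 for Cbr2 to 0.97 ± 0.25 for Mrc1 (log2, adjusted p = 0.179). None was called, as for all but 0.00845% of genes, and 4 had an unadjusted p under 0.05, against 8.8% of genes (limma). Mrc1 was called without KO cuprizone 1 (0.97, adjusted p = 0.0261), and the share of all genes called in that fit is not given here. That array is in neither set, so leaving it out changed the estimate of the spread and not the difference. The 3 arrays low in immediate-early genes are in neither set as well. Without them the differences stayed at 0.97 for Mrc1 and 0.72 for F13a1. Both sets are set against the same 2 KO control arrays. Against these, set B was lower for 7 genes and none was called (0.744% of genes), with F13a1 at -0.89 (adjusted p = 0.188), Mrc1 at -0.70 and Stab1 at -0.30 (adjusted p = 0.179). In that comparison 4 of the 8 and 14.2% of genes had an unadjusted p under 0.05, and 5 of the 8 had all set B arrays below, against 12.5%. Set A against KO control gave no call (0.0338% of genes, 0 of the 8 and 11.5% of genes at an unadjusted p under 0.05), with values on both sides of 0. The average of the Covi-Ox difference in KO mice, which does not depend on the reading, gave none either (0.144% of genes, 1 of the 8 and 11.8% of genes at an unadjusted p under 0.05), from -0.17 for F13a1 to 0.43 for Cbr2.

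Ordered by group mean, WT control was the highest group for 6 of the 8 genes and WT Covi-Ox for Mrc1 and Stab1. WT both was the lowest for 7 genes and KO cuprizone for Lyve1. Of 56 gaps between neighbouring groups in these orders, 53 were smaller than the gene's residual SD, and in 4 the arrays of the neighbours did not overlap. The gap of Stab1 between set A and set B (0.22, 2.64 residual SDs) and that of Pf4 between WT Covi-Ox and KO cuprizone (0.39, 1.65 residual SDs) were the largest in these terms. The third was Pf4 between WT cuprizone and WT both, at 1.00 residual SD.

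Apart from Stab1, at percentile 2.43, the genes had residual SDs, pooled over all 8 groups, above those of most genes. Residual SDs were 0.35 for Mrc1, 0.38 for Cd163, 0.41 for Lyve1, 0.39 for F13a1 and 0.46 for Cbr2, at percentiles 95.9, 97.1, 97.8, 97.3 and 98.6 of all genes tested, whose median was 0.168. Pf4 (0.24) and Folr2 (0.25) stood at percentiles 82.3 and 85.0. The groups did not share this spread evenly. The SD within KO cuprizone was 0.78 for Mrc1, 0.71 for Cd163, 0.78 for Lyve1 and 0.77 for F13a1, the largest group SD of each. Mrc1 ran from 0.04 in KO control to 0.27 in WT cuprizone over the other groups. Cbr2 had its largest SD in set B (0.85), followed by KO cuprizone (0.69). KO cuprizone 3 was the lowest array of the series for Mrc1, Cd163, Lyve1, F13a1 and Cbr2. When each gene was standardised over the 22 arrays, the mean of the 8 was lowest on KO cuprizone 3 (-1.52), set B 1 (-1.33) and WT both 2 (-1.24) and highest on WT control 2 (1.02). The first of these arrays was low in immediate-early genes and the other 2 were not.

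**Figure D3:**
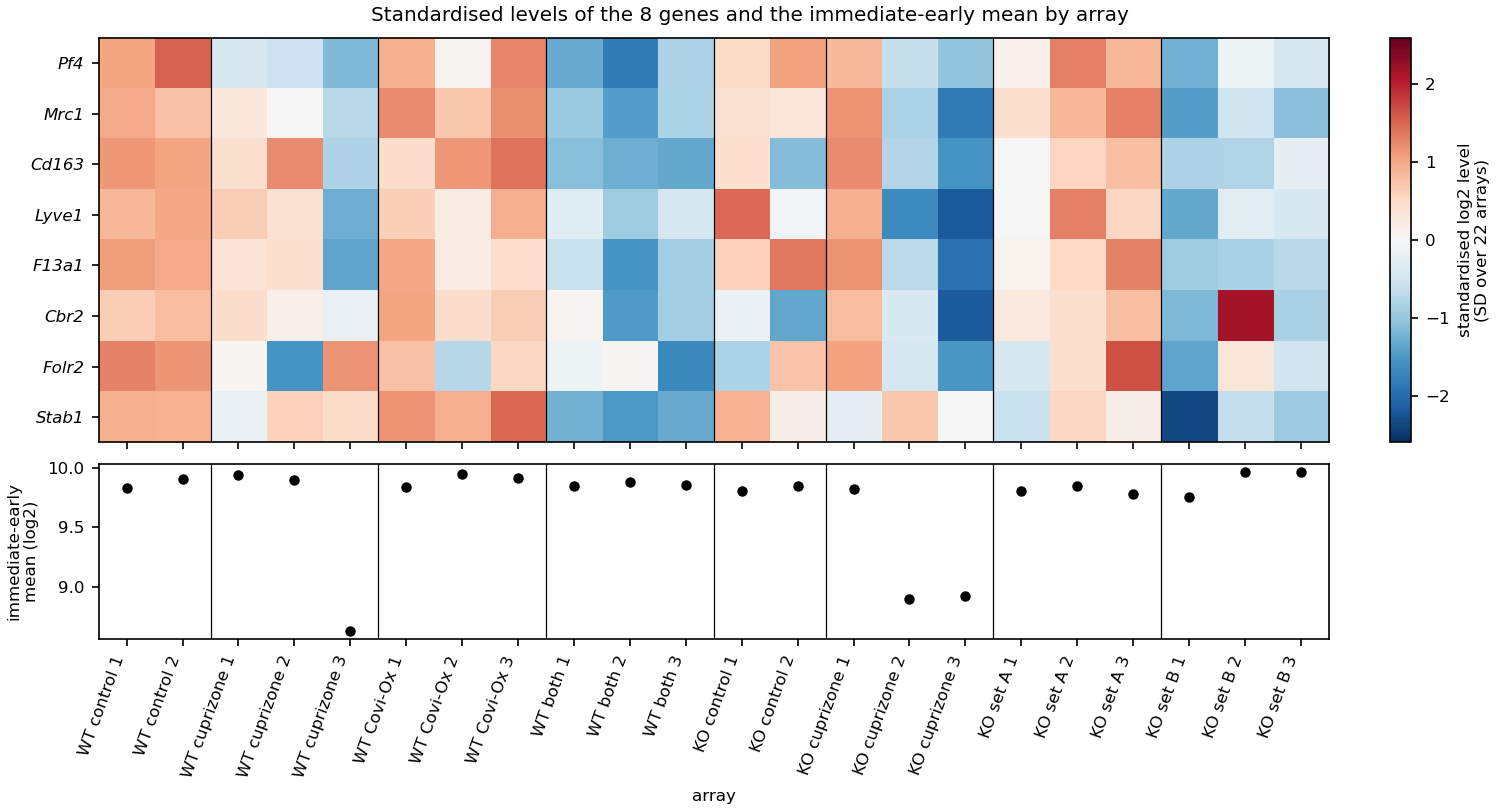
Standardised log2 level of each gene (rows, colour in SDs over the 22 arrays, red high and blue low) on each array (columns, by group), above the mean log2 level of 24 immediate-early genes on the same arrays. The WT both columns are mostly blue with immediate-early means of 9.85 to 9.88, and KO cuprizone 1 (9.82) is mostly red beside KO cuprizone 2 and 3 (8.89 and 8.92).

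Across arrays the levels of the genes were correlated. Over the 28 pairs, Pearson's r of log2 levels on the 22 arrays ran from 0.37 to 0.91 with a median of 0.64, highest for Mrc1 with F13a1 (0.91) and for Pf4 with Mrc1 (0.89). After each group's mean was taken out, r ran from -0.08 to 0.90 with a median of 0.50. These deviations were widest within KO cuprizone for Mrc1, Cd163, Lyve1 and F13a1, so those arrays weigh heavily in r. What the correlation rests on was not tested. Lyve1 with Cd163 stood at 0.87 on these deviations and Mrc1 with Stab1 at 0.08. The points share the arrays, their normalization and the sort, and r is given as a description. Set against the mean of the other 7, Pf4 (r = 0.872), Mrc1 (0.962) and F13a1 (0.861) each ranked 1 among 11823 genes, Lyve1 (0.833) ranked 5 and Cd163 (0.817) 7. Cbr2 (0.666) ranked 181, Stab1 (0.639) 282 and Folr2 (0.570) 619.

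The genes whose log2 levels were most like the mean of the 8 over the 22 arrays were Cp (r = 0.863), the iron oxidase ceruloplasmin, the transcription factor gene Stat6 (0.862), Pltp (0.845), a lipid transfer protein, and Hfe (0.842), a regulator of iron uptake. Gspt1 (0.828), Dab2 (0.813), Arid3b (0.812), Tpm3 (0.811), Rbm26 (0.809) and Ccl24 (0.808) followed. Cp, Dab2 and Ccl24 belong to the list of other border macrophage genes. On deviations from group means the most alike were Ccl2 (0.909), Cd209a (0.905) and Ms4a7 (0.903), and Dab2 (0.826) was the only gene among the first 10 on both measures. Lyz2 showed how far the measures differ, with r of 0.04 on levels and 0.829 on deviations.

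A list of other genes known from border-associated macrophages varied with the 8, with r of 0.907 between the mean of its 22 tested genes and that of the 8 over the arrays. On the same measure 1 neuron gene (Snap25, above the array median on 15 arrays) stood at 0.79, 3 astrocyte genes at 0.62 and 7 glucocorticoid response genes at 0.54. The 13 microglia markers stood at 0.43 and 6 MHC class II genes at -0.33. Lower still were 10 other scavenger and lectin receptors and 8 monocyte genes, both at -0.42. The lowest of the lists was that of 16 disease-associated microglia genes (described below), at -0.51. In the WT average over both diets 6 of these 22 fell, against 5.93% of all genes called lower. They were Ccl24, a chemokine for eosinophils (-0.79 ± 0.19 on the log2 scale, adjusted p = 0.0103), Slc40a1, the iron exporter ferroportin (-0.50 ± 0.12, adjusted p = 0.00905), Cp (-0.45), Timd4, a receptor for dying cells (-0.42), Maf, a macrophage transcription factor (-0.40), and Hpgd, which breaks down prostaglandins (-0.31). Those that rose were the sialic acid receptor Siglec1 (0.63 ± 0.15, adjusted p = 0.0083) and the scavenger receptor Colec12 (1.18 ± 0.20, adjusted p = 0.000653). The other 14 did not pass, among them Dab2 at -0.37 (adjusted p = 0.0755), Cd209f at -0.34 and Ms4a7 at -0.23. Those 8 calls stand against 12.9% of all genes called in either direction, and the list's median was -0.34, against -0.03 over all genes. Cd209b, Cd209d and Cd209g stayed below the array median on all 22 arrays.

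Between genotypes the same list had 4 of 22 genes lower in KO mice and none higher, where 6.37% of all genes were called in either direction: Lilra5 (-0.77 ± 0.14, adjusted p = 0.00115), Colec12 (-0.65), Ms4a7 (-0.58, adjusted p = 0.0455) and the fatty acid receptor Cd36 (-0.54, adjusted p = 0.0119). Its median was -0.07, against -0.01 over all genes. MHC class II genes mark another subset of border-associated macrophages as well as activated microglia. Of 6 tested, Cd74 (0.54), H2-Aa (0.41) and H2-DMa (0.35) rose in the WT average, where 12.9% of all genes were called in either direction. Cd74 (-0.38) and H2-DMa (-0.33) were lower in KO mice, where the share was 6.37%.

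Lists named for the functions of the 8 genes held calls in both directions in the WT average, where 12.9% of all genes were called. Of 10 haem and iron genes, the ferritin chains Fth1 (0.23) and Ftl1 (0.49) rose and Slc40a1 fell. Of 10 other scavenger and lectin receptors, Olr1 (2.65) and Clec7a (2.88) rose, and of 5 hyaluronan receptors and enzymes Cd44 (1.52) rose. Among 9 folate genes Tyms (0.38) rose, none of 7 alternative activation genes was called (limma, 1 with an unadjusted p under 0.05), and of 7 glucocorticoid response genes Nr3c1 (-0.32) fell. Among 8 macrophage transcription factor genes Maf and Sall1 (-0.31) fell. In KO against WT mice, where 6.37% of all genes were called, Cd36 (above), Olr1 (-1.33), Clec7a (-1.72), Msr1 (-0.64), Cd44 (-0.68), the iron genes Tfrc (-0.60), Trf (-0.23) and Fth1 (-0.16) and the folate list's Gart (-0.25) were lower. Sgk1 of the glucocorticoid list was higher (0.15).

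**Figure D4:**
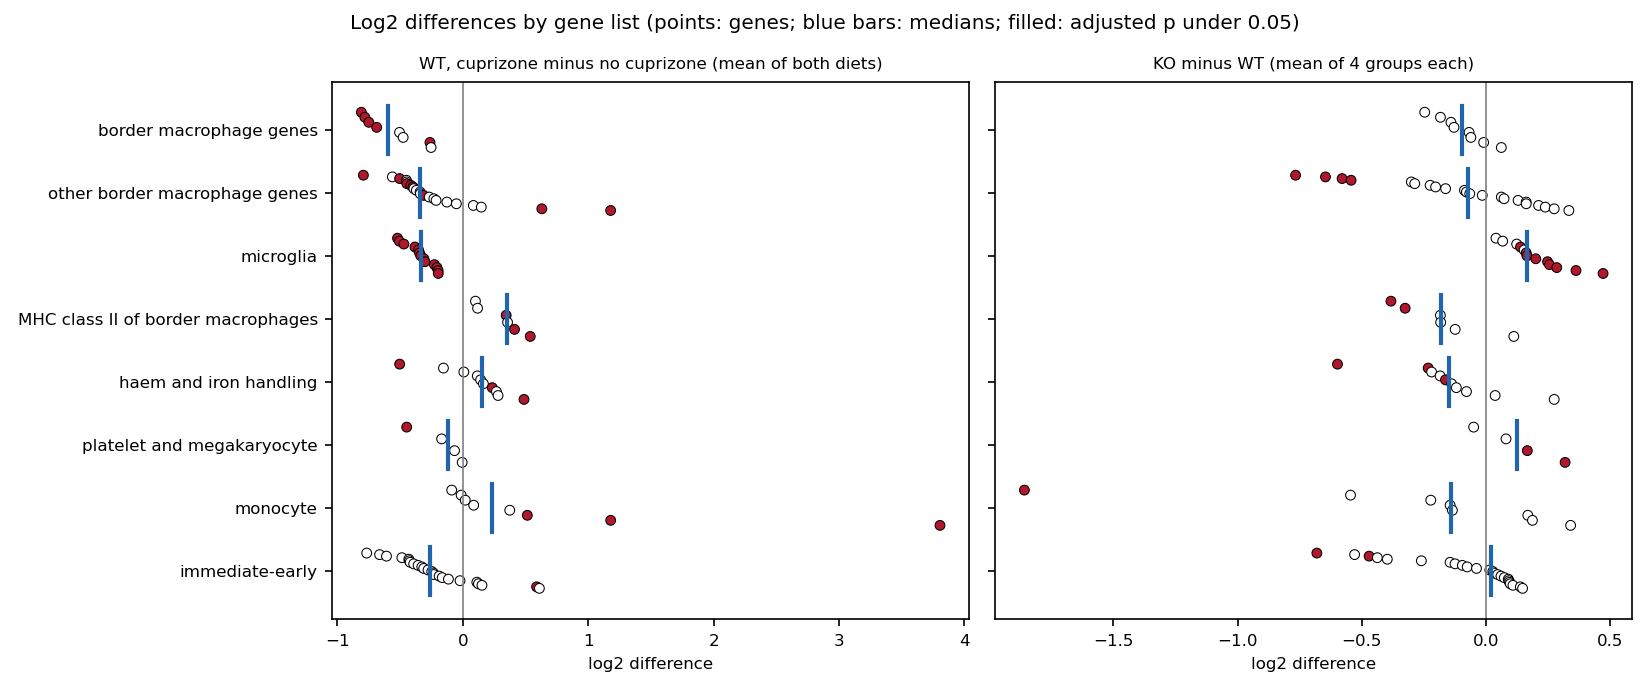
Log2 differences of single genes (points) by list (rows) for cuprizone in WT mice (left, mean of both base diets) and for KO minus WT (right, mean of 4 groups each), filled where the adjusted p was under 0.05, with blue bars at list medians. On the left the 8 border macrophage genes have a median of -0.60, other border macrophage genes -0.34, microglia markers -0.34 and MHC class II genes 0.35.

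Markers of microglia and of other cells moved alongside the WT result. In the WT average 12.9% of all genes were called in either direction and 5.93% lower. In KO against WT mice 6.37% of all genes were called. All 13 microglia markers fell in the WT average, from -0.20 for Fcrls to -0.52 for Slc2a5, with a median of -0.34, and their summed intensity was 33102 to 34068 in WT both, 34496 to 39932 in WT cuprizone and 43716 to 44546 in the WT groups without cuprizone. Of 16 genes of disease-associated microglia, a state of microglia around damage, 15 rose in the WT average (median 2.46, with Cst7 at 4.07 and Lpl at 3.56) and 14 were lower in KO against WT mice (median -1.28). Of 8 tested monocyte genes, Fn1 (3.81), Ms4a4c (1.18) and Itgal (0.51) rose, and the summed intensity of all 10 measured was 1047 to 1177 in WT both, 494 to 1538 in WT cuprizone, 321 to 323 in WT Covi-Ox and 410 to 436 in WT control. Fn1 ranged from 25.1 to 1061 in intensity over the 22 arrays, and no other of the 10 exceeded 138. The defining monocyte gene Ccr2 was above the array median on all 22 arrays, while Vcan and F10 were below it on all. Of 4 tested platelet genes, which matter for Pf4 and F13a1, Gp9 fell (-0.45) and none rose, and the sum over 7 was 345 to 358 in WT both, 442 to 474 in WT Covi-Ox, 432 in both WT control arrays and 389 to 433 in WT cuprizone. Gp9 ranged from 159 to 314 in intensity over the 22 arrays, and no other of the 7 exceeded 84.7, so the sum rests largely on Gp9. The platelet genes Ppbp and Alox12 lay below the array median on every array, and Gp9 and Treml1 above it on every array. Tubb1 was above it on 20 arrays, Itga2b on 8 and Clec1b on 1. Neutrophil gene sums ranged widely, from 186 to 253 in WT Covi-Ox, 375 to 556 in WT both, 702 to 2465 in WT cuprizone and 3360 to 3410 in WT control. With cuprizone the sums were thus lower on chow and higher on the Covi-Ox diet, and the WT average sets these opposite differences against each other. None of 6 tested neutrophil genes was called in that average or had an unadjusted p under 0.05 there (limma). Of 9 measured endothelial and lymphatic genes, which bear on Lyve1, Cldn5, Kdr, Tek, Emcn and Slco1a4 were below the array median on all arrays, while the lymphatic factor gene Prox1 was above it on all 22 and Pecam1 on 21. In the WT average Flt1 rose (1.92), Pecam1 fell (-0.46) and Prox1 stood at -0.27 (adjusted p = 0.114). The part of these cells and states in the differences of the 8 genes was not tested.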

How the data were processed

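Total RNA from sorted brain cells of 22 samples was measured on Affymetrix arrays. The deposited values are RMA intensity on a linear scale, per the submitters' processing notes and the values themselves. Which build the array follows and how RMA was set is not stated here. Log2 was taken of the deposited intensity. Of 28098 probe sets, 21640 map to a single gene. Each gene was read from its single-gene probe set of highest mean, and kept where at least 2 arrays read above their own 50th percentile (11830 of 19937 genes). RMA hides changes of total RNA.

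The test was limma 3.58.1 (R 4.3.3), with 8 group means over all 22 arrays in 1 model (14 residual degrees of freedom) and 15 comparisons. All tests were two-sided, with Benjamini-Hochberg adjustment over 11830 genes and calls at an adjusted p under 0.05. Printed errors are this model's standard errors and residual SDs come from it too. The number of arrays limits the precision. The workflow was tested on simulated data.

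The 8 genes, the 22 other gene lists, the comparisons and the alternatives were chosen with earlier results of these data known. Named genes are the 8, Trem2, up to 4 called members of a list with defining markers near or below the median, and the 10 most alike genes. Further list members (not called, beyond 4, or alike on deviations, such as Ccl2, Lyz2, Cd209a and Ms4a7) were named after their values were seen. Alternatives were a replicate block, only the compared arrays, other filters, normalizations, probe set rules and variance models, array weights, the immediate-early mean as a covariate, and arrays left out.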

Additional observations from a re-analysis of the deposited data

How the results depend on the processing

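The 10 called differences of single genes were recomputed under 11 alternatives, of which 103 values kept direction and call, 7 lost the call and 0 reversed. Of these 7, 6 belong to Pf4 in WT cuprizone against WT control, whose count of called genes fell from 1 to 0 with centring on the array median, with the immediate-early covariate, without the filter on low values, with only the compared arrays, with the replicate block and without the 3 arrays low in immediate-early genes. The count in WT both against WT Covi-Ox was 7 with only the compared arrays. Against WT cuprizone, WT both had 1 called gene, Cd163, with array weights, with the covariate and without the 3 low arrays. Set A against set B had 1 called gene with array weights, the covariate and only the compared arrays, and 2 without the 3 low arrays. Set B against KO control had 1 with the covariate and 2 without the 3 low arrays. Beyond the ranges in the next paragraph, the shares of all genes called in these fits are not given here. With 1 array left out at a time, counts ran from 0 to 1 for WT cuprizone against control, 1 to 5 for WT both against Covi-Ox, 2 to 6 for the WT average, 0 to 3 for KO cuprizone against control and 0 to 1 for set A against set B, and stayed at 0 in the other comparisons.

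The share of all genes called in the WT average ran from 6.52% without the filter to 23.6% with a filter at the 75th percentile, and in WT both against WT Covi-Ox from 3.87% without the filter to 14.8% with array weights. In WT cuprizone against control it ran from 0.0761% with only the compared arrays to 5.94%. The replicate numbers showed no pairing of the arrays on 1 measure: deviations of same-numbered arrays correlated with a median r of -0.0004 (71 pairs) and others with 0.004 (140 pairs). A median over all pairs cannot settle whether arrays of some groups were paired, which was not tested. With the replicate block, Pf4 in WT cuprizone against control stood at -0.77 (adjusted p = 0.0849) and F13a1 in the WT average at -0.65 (adjusted p = 0.0530), and no other call was lost. The cause of these changes was not tested. Folr2 and Cd163 lay within 1 log2 unit of the array median on 18 and 9 arrays, and what part of their signal is background was not tested. The control groups hold 2 arrays each.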
